A study of Mus musculus with 4 samples.

Results

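Semaphorins, plexins, Slits, Robos, netrins and Unc5 receptors were measured in insulinomas of RT2 mice, whose beta cells express a transgenic oncogene from the insulin promoter, after treatment with sEphB4-Alb (2 tumors) or PBS (2 tumors). Genes were chosen by symbol alone, as every entry of the value table that begins with Sema3 to Sema7, Plxn, Ntn or Unc5. Entries named Slit1 to Slit3 or Robo1 to Robo4 were also taken, which gave 42 of 18091 genes. A further 6 genes whose current symbols fit this pattern, among them Ntn1 and Plxnb2, were not analysed here. The sEphB4-Alb tumors came from mice given 10 mg/kg of an albumin fusion of EphB4 that consists of its extracellular part, 3 times weekly from 10 weeks of age, and the PBS tumors from mice given the vehicle on the same schedule (6 mice in each group, tumors taken at 13.5 weeks). All mice were RT2 Dll4+/+ according to the methods. The sample labels name the CD1 and C57/BL6 backgrounds for every tumor and do not say which mouse a tumor came from, so p-values reflect the spread among the sampled tumors alone, which may be technical. Tumors are numbered by their titles, whereas the description field of the labels gives both tumors of a group the same replicate number.

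Guidance cues steer growing axons and vessel sprouts by attracting or repelling the cell that carries the matching receptor. Class 3 semaphorins are secreted and bind neuropilins paired with plexins of class A, whereas Sema3e binds Plxnd1, a plexin of endothelial cells, directly. Slits signal through Robo receptors, with Robo4 largely restricted to endothelium, and netrins act through Dcc and neogenin or, in repulsion, through the Unc5 family, of which Unc5b is found on endothelial tip cells. By its letters the pattern also takes Unc50, a protein of the inner membranes of the cell, and Unc5cl, which has no extracellular part, and neither is a netrin receptor.

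RNA of each tumor was placed on its own Illumina MouseRef-8 v2.0 array, on which the brightness of labelled cRNA measures a transcript and each gene has 1 value. A signal was called above background where it exceeded the 95th percentile of a normal distribution fitted to the dim side of the signals of that array, at 149.2 and 153.4 for the sEphB4-Alb tumors and 135.8 and 136.3 for the PBS tumors. By this rule 55.2% and 55.7% of all genes were above background in the sEphB4-Alb tumors, against 49.6% and 53.8% in the PBS tumors. Median signals were also brighter there, at 159.9 and 168.7 in the sEphB4-Alb tumors, against 135.5 and 141.6 in the PBS tumors. Signals were therefore background corrected and quantile normalized, which gives all arrays the same distribution, before groups were compared on the log2 scale. Of the 10 beta cell markers listed, 5 were above background in all 4 tumors, the insulin genes Ins1 and Ins2 among them. Mafa and Slc2a2 were above it in none. Acinar pancreas genes had median normalized log2 signals of 9.05 and 12.28 in the sEphB4-Alb tumors and 7.63 and 10.23 in the PBS tumors, so their part varied from tumor to tumor. Hba-a1, an alpha-globin gene, was at 11.21 and 12.20 in the sEphB4-Alb tumors and 14.22 and 12.19 in the PBS tumors. Xist, which silences an X chromosome in females, was at 8.21 and 9.16 in the sEphB4-Alb tumors and 6.46 and 6.24 in the PBS tumors, and Ddx3y, a Y-linked gene, was at 6.47 and 7.16 in the sEphB4-Alb tumors and 8.84 and 9.41 in the PBS tumors. The study describes RT2 mice of this age and dose as male, which the Xist values of the sEphB4-Alb tumors go against, and the labels give no sex. Sex and treatment cannot be told apart here. In whole tumors, fewer cells of a type and less RNA per cell cannot be told apart either.

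Of the 42 genes, 14 were above background in all 4 tumors, 13 in 1 to 3 tumors and 15 in none. The counts by tumor were 23 and 24 of 42 in the sEphB4-Alb tumors, against 16 and 23 of 42 in the PBS tumors, so PBS tumor 1 had the fewest. The 14 genes measured in every tumor were Sema3a, Sema3f, Sema4a, Sema4b, Sema4d, Sema5a, Plxna2, Robo1, Robo4, Slit2, Ntn2l, Ntng1, Unc5b and Unc5c. Those never above background were Sema3b, Sema3c, Sema3g, Sema5b, Sema6a, Sema6c, Plxna1, Plxna3, Plxna4, Plxnb3, Slit1, Ntng2, Unc5d, Unc50 and Unc5cl, with signals between 104.2 and 150.4. Sema3b came nearest to the threshold, with 147 and 150.4 in the sEphB4-Alb tumors, against 126 and 133 in the PBS tumors. Plxnb1, Plxnc1, Robo2, Sema3e and Sema7a exceeded the background in 1 or 2 single tumors without reaching both tumors of a group, and with the 15 they were not tested. This left 22 genes for the comparison, which required a signal above background in both tumors of at least 1 group.

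**Figure D1:**
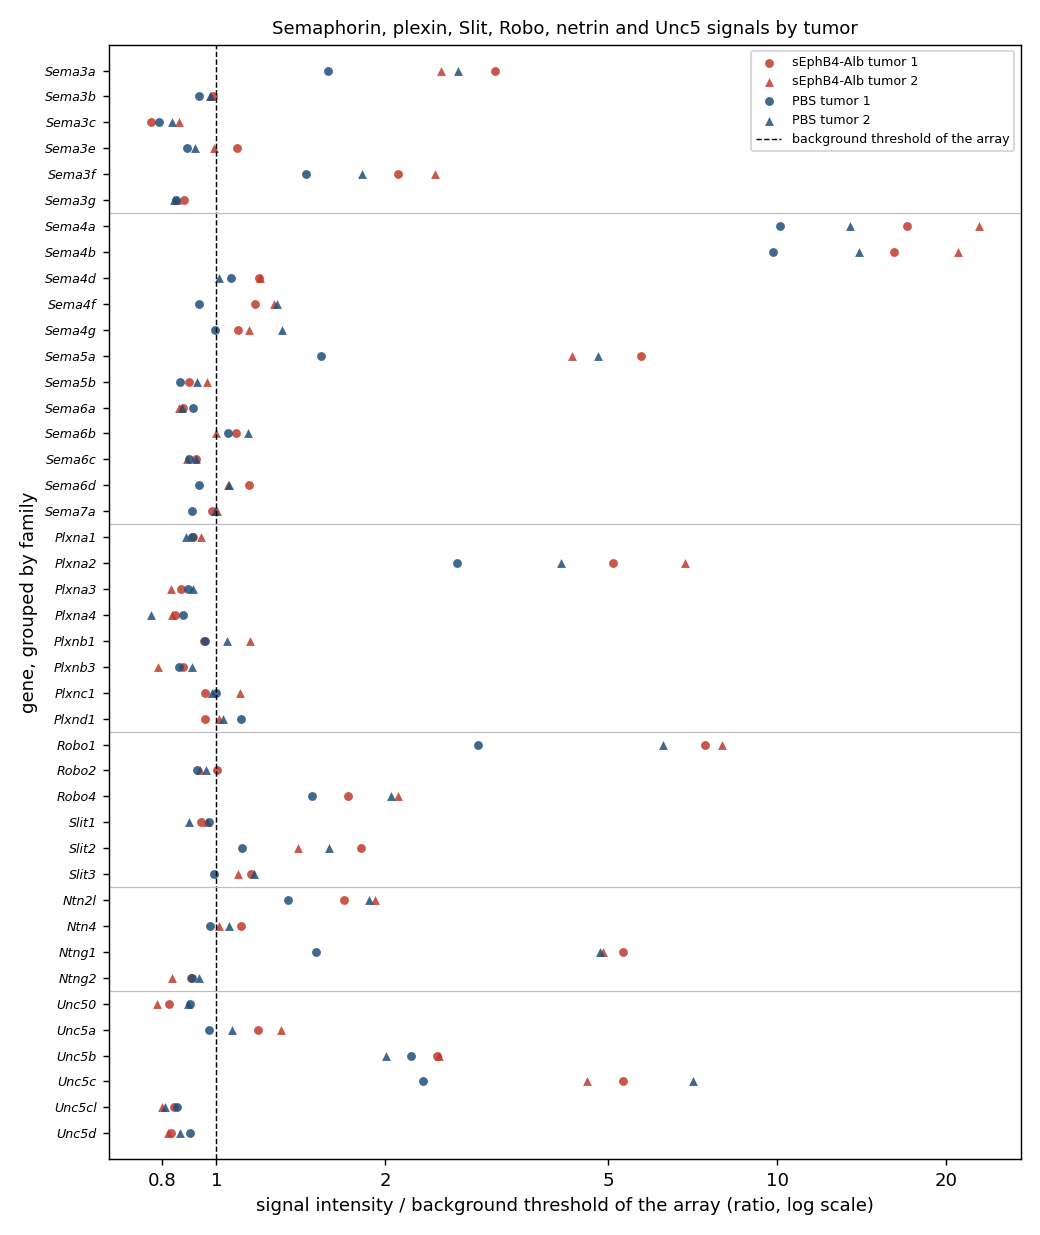
Signal intensity of the 42 genes divided by the background threshold of its array, on a log axis, with 1 point per tumor (red, sEphB4-Alb; blue, PBS; circles, tumor 1; triangles, tumor 2). Values are to be compared within a row, since probes differ in brightness. PBS tumor 1 lies apart on the left for Ntng1, Sema5a and Robo1, and 15 genes stay left of the dashed line in all tumors.

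No gene of these families passed the thresholds between sEphB4-Alb and PBS tumors. With limma, 0 of the 22 genes were higher and 0 were lower at more than 2-fold with an unadjusted p below 0.05, where 1.07% of the 9668 genes tested were higher and 0.176% lower. Without the fold threshold, 0 of the 22 genes had such a p, against 6.47% of all genes tested (626 genes). With PBS tumor 2 left out, the log2 fold changes of Ntng1 and Sema5a were 1.21 and 1.12, against -0.19 and -0.22 without PBS tumor 1. The adjusted p from limma ran from 0.749 to 0.998 over the 22 genes, and 0 of the 9668 genes tested passed an adjusted p of 0.05 (1 gene without moderation of the variances, 0 with the Mann-Whitney-Wilcoxon test). Log2 fold changes, given as sEphB4-Alb over PBS with their standard error (SE) and confidence interval (CI) below, lay between -0.38 (Plxnd1) and 0.52 (Ntng1) with a median of 0.02, beside a median of -0.02 over all genes tested. They were above 0 in 14 of the 22 genes (63.6%), against 46.8% of all genes, but the balance turned with the processing. It was 9 above and 13 below 0 relative to the median gene without normalization. Without PBS tumor 1, where 23 of the 42 genes were tested, it was 8 above and 15 below 0. The normalized values of the groups did not overlap in 7 genes, of which 3 (Plxna2, Sema3f and Unc5a) were higher in sEphB4-Alb, an order found in 18.1% of all genes, and 4 were lower (Robo4, Plxnd1, Sema6b and Ntn2l), found in 21.3% of all genes. Plxnd1 and Sema6b entered the comparison through the PBS tumors, being above background in only 1 of the sEphB4-Alb tumors. Unc5a entered it through the sEphB4-Alb tumors, so the filter itself favored the direction of these genes. In 16 of the 22 genes (72.7%), and in 73.5% of all genes, the gap between tumors of 1 group was larger than the difference between the groups. Most marker lists of other cells also leaned above 0 between the same groups, though 0 genes passed an adjusted p of 0.05. Beta cell markers were above 0 in 7 of 8 tested, acinar in 8 of 8 and T and NK cell in 3 of 3. Neuron and Schwann cell markers were above 0 in 3 of 3, and pericyte and smooth muscle in 4 of 6. Fibroblast markers were above 0 in 3 of 5 and red blood cell markers in 0 of 2. Past both thresholds were the fibroblast marker Col1a1 (1.01) and the neuron marker Prph (1.08), each with a limma adjusted p = 0.667. In the beta cell, acinar, T and NK cell, pericyte and smooth muscle, and red blood cell lists 0 markers passed both. Duct markers had median normalized log2 signals of 7.68 and 8.28 in the sEphB4-Alb tumors and 6.55 and 7.14 in the PBS tumors, with summed signals of 3543 and 4908 in the sEphB4-Alb tumors, against 1042 and 2290.1 in the PBS tumors. All 7 duct markers tested had a log2 fold change above 0, the groups did not overlap in 6, and 3 passed both thresholds, the mucin Muc1 (1.58) and the keratins Krt8 (1.58) and Krt19, each with a limma adjusted p = 0.74. Macrophage markers had medians of 8.55 and 8.40 in the sEphB4-Alb tumors and 7.97 and 8.04 in the PBS tumors, with summed signals of 8371 and 9324 in the sEphB4-Alb tumors, against 6450.4 and 3913 in the PBS tumors. Of these 8 markers, 7 were above 0, 6 did not overlap and 0 passed both thresholds. The part of these cells in the values of the guidance genes was not tested. With 2 tumors against 2, an exact two-sided permutation test of a single gene cannot give a p below 0.333.

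**Figure D2:**
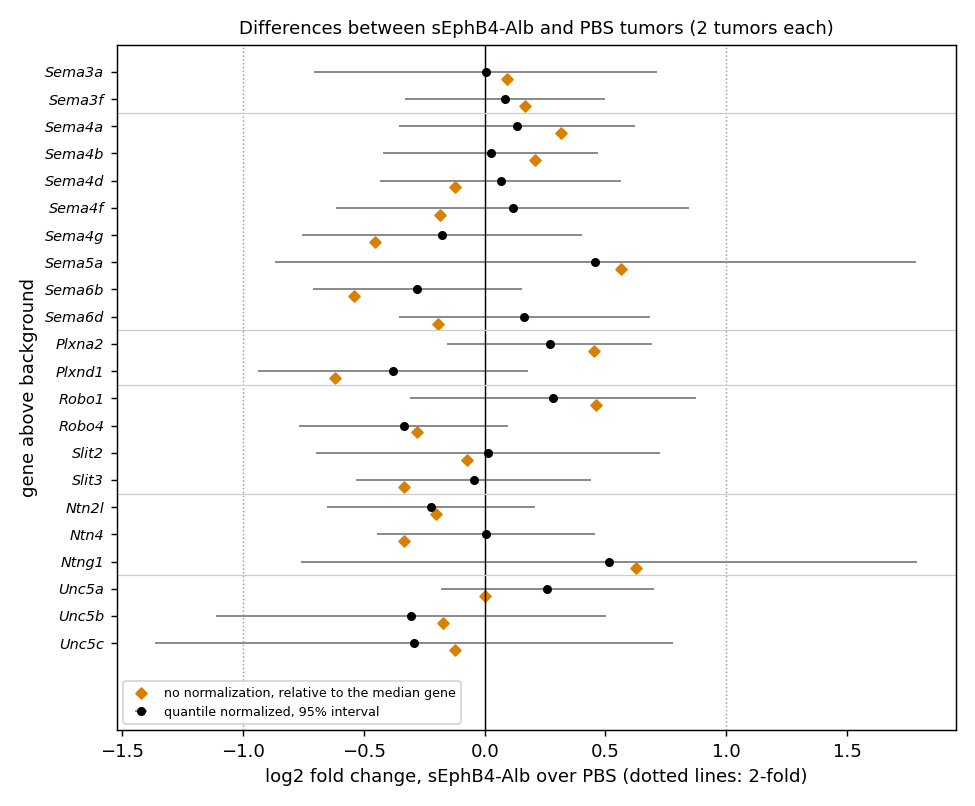
Log2 fold change of the 22 genes above background, sEphB4-Alb over PBS. Black points with bars give the quantile normalized value with its 95% confidence interval (n = 2 tumors per group), and orange diamonds give the value without normalization between arrays relative to the median gene. All intervals include 0, and that of Ntng1 reaches from -0.76 to 1.79.

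Among the ligands, the class 3 semaphorins gave 2 of 6 genes above background. Sema3a, a repellent of axons and endothelial cells, had signals of 469 and 386 in the sEphB4-Alb tumors, against 215 and 368 in the PBS tumors. Each sEphB4-Alb tumor was brighter than each PBS tumor here, with PBS tumor 1 dimmest. The groups overlapped once normalized, when Sema3a was at 8.48 and 7.88 in the sEphB4-Alb tumors and 7.98 and 8.37 in the PBS tumors, a log2 fold change of 0.00 (SE 0.28, 95% CI -0.71 to 0.71, limma adjusted p = 0.998). Sema3f, an inhibitor of vessel and lymphatic growth, had signals of 315 and 377 in the sEphB4-Alb tumors, against 196 and 248 in the PBS tumors. Its normalized values were the closest together of all 22 genes, within 0.14 over the 4 tumors, and its log2 fold change was 0.08 (SE 0.16, 95% CI -0.33 to 0.50, limma adjusted p = 0.906). Sema3e, the ligand of Plxnd1, was near background, with 162 and 152 in the sEphB4-Alb tumors, against 121 and 125 in the PBS tumors, and exceeded it in sEphB4-Alb tumor 1 alone.

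The membrane-bound semaphorins of classes 4 to 7 gave 8 of 12 genes above background. Sema4a, which acts on plexins and on immune cells, had signals of 2546 and 3516 in the sEphB4-Alb tumors, against 1376 and 1841 in the PBS tumors. Sema4b, a transmembrane relative, had 2408 and 3224 in the sEphB4-Alb tumors, against 1334 and 1910.5 in the PBS tumors. Both were brighter in the sEphB4-Alb tumors before normalization, by 0.91 and 0.80 on the log2 scale, but the groups overlapped afterwards, at log2 fold changes of 0.13 (SE 0.19) and 0.02 (SE 0.17). Sema4d, the ligand of Plxnb1, was just above background in every tumor, with 177 and 184 in the sEphB4-Alb tumors, against 144 and 138 in the PBS tumors, and its log2 fold change was 0.07 (SE 0.19). Its receptor Plxnb1 exceeded the background in sEphB4-Alb tumor 2 and PBS tumor 2 only.

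Sema5a, a semaphorin with thrombospondin repeats, varied most of the 22 genes. Its signals were 852 and 661 in the sEphB4-Alb tumors, against 209 and 654 in the PBS tumors. PBS tumor 1 lay well below the other 3, and PBS tumor 2 was level with sEphB4-Alb tumor 2. On the normalized scale it was at 9.43 and 8.67 in the sEphB4-Alb tumors and 7.93 and 9.26 in the PBS tumors, a log2 fold change of 0.46 (SE 0.51, 95% CI -0.87 to 1.78, limma adjusted p = 0.833). The value was -0.22 without PBS tumor 1 and 1.12 without PBS tumor 2, so its direction rested on 1 array. Sema6b, a transmembrane ligand of class A plexins, went the other way, at 6.62 and 6.45 in the sEphB4-Alb tumors and 6.83 and 6.80 in the PBS tumors. The groups did not overlap, with a log2 fold change of -0.28 (SE 0.17, 95% CI -0.71 to 0.15, limma adjusted p = 0.761). Its unprocessed signals overlapped and lay close to background, at 162 and 153 in the sEphB4-Alb tumors, against 143 and 155 in the PBS tumors. Sema6b was above background in only 1 of the sEphB4-Alb tumors, tumor 1. The log2 fold changes of Sema4f, Sema4g and Sema6d were 0.12, -0.18 and 0.16, and each was above background in only 1 of the PBS tumors, tumor 2. Sema7a, which is anchored in the membrane and binds Plxnc1, exceeded the background in sEphB4-Alb tumor 2 alone, as did Plxnc1.

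Of the Slit ligands, Slit2 was above background in all tumors, with 271 and 215 in the sEphB4-Alb tumors, against 151 and 216 in the PBS tumors. sEphB4-Alb tumor 2 and PBS tumor 2 had nearly the same signal, and the log2 fold change was 0.01 (SE 0.28). Slit3 was nearer to background, with 172 and 167 in the sEphB4-Alb tumors, against 135 and 159 in the PBS tumors and a log2 fold change of -0.05 (SE 0.19).

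Netrins and netrin-Gs gave 3 of 4 genes above background. Ntng1, a membrane-anchored netrin of axons that does not use the netrin receptors, had signals of 793 and 750.1 in the sEphB4-Alb tumors, against 204 and 659 in the PBS tumors. As with Sema5a, PBS tumor 1 stood far below the other tumors, while PBS tumor 2 was near both sEphB4-Alb tumors. Normalized values were 9.31 and 8.86 in the sEphB4-Alb tumors and 7.87 and 9.27 in the PBS tumors, and the log2 fold change of 0.52 (SE 0.49, 95% CI -0.76 to 1.79, limma adjusted p = 0.808) was the largest of the 22 in either direction. It was -0.19 without PBS tumor 1 and 1.21 without PBS tumor 2. Ntn2l, a secreted netrin now named Ntn3, had 252 and 294 in the sEphB4-Alb tumors, against 183 and 255 in the PBS tumors. After normalization it was at 7.43 and 7.46 in the sEphB4-Alb tumors and 7.59 and 7.74 in the PBS tumors, lower in both sEphB4-Alb tumors, with a log2 fold change of -0.22 (SE 0.17, 95% CI -0.65 to 0.21, limma adjusted p = 0.788). Ntn4, a netrin of vascular basement membranes, was close to background, with 165 and 155 in the sEphB4-Alb tumors, against 132 and 144 in the PBS tumors and a log2 fold change of 0.00 (SE 0.17).

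Among the receptors, 2 of 8 plexins were tested and they differed in sign. Plxna2, a receptor for class 3 and class 6 semaphorins, had signals of 759 and 1049.6 in the sEphB4-Alb tumors, against 365 and 561 in the PBS tumors. The groups did not overlap before or after normalization, at normalized values of 9.24 and 9.38 in the sEphB4-Alb tumors and 9.05 and 9.03 in the PBS tumors. The log2 fold change was 0.27 (SE 0.16, 95% CI -0.16 to 0.69, limma adjusted p = 0.761). Plxnd1, the endothelial plexin, was at or near background throughout, with 143 and 155 in the sEphB4-Alb tumors, against 150.1 and 140.2 in the PBS tumors. Plxnd1 exceeded the background in only 1 of the sEphB4-Alb tumors, tumor 2. Its unprocessed signals overlapped, whereas its normalized values were 6.37 and 6.47 in the sEphB4-Alb tumors and 7.03 and 6.57 in the PBS tumors, with the highest value in PBS tumor 1. The log2 fold change was -0.38 (SE 0.22, 95% CI -0.94 to 0.18, limma adjusted p = 0.754), and it was -0.17 without PBS tumor 1 and -0.61 without PBS tumor 2.

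Robo1, the widely expressed Slit receptor, had signals of 1108 and 1222 in the sEphB4-Alb tumors, against 397 and 852 in the PBS tumors. Before normalization the groups did not overlap, and PBS tumor 1 was dimmer than the other 3 tumors. The groups overlapped on the normalized scale, at 9.83 and 9.59 in the sEphB4-Alb tumors and 9.20 and 9.66 in the PBS tumors, with a log2 fold change of 0.28 (SE 0.23, 95% CI -0.31 to 0.87, limma adjusted p = 0.801). This was 0.05 without PBS tumor 1 and 0.51 without PBS tumor 2. Robo4, the endothelial Robo, had signals of 257 and 323 in the sEphB4-Alb tumors, against 201 and 279 in the PBS tumors, in which the groups overlapped. Its normalized values were 7.45 and 7.61 in the sEphB4-Alb tumors and 7.84 and 7.90 in the PBS tumors, and so lower in both tumors given sEphB4-Alb. The log2 fold change was -0.34 (SE 0.17, 95% CI -0.77 to 0.10, limma adjusted p = 0.749), the lowest adjusted p of the 22 genes, and it stayed between -0.40 and -0.25 with any 1 tumor left out. Over the 9 endothelial genes listed beside it, 5 were above background in all tumors and 7 were tested, of which 5 had a log2 fold change above 0. Their median normalized log2 signals were 7.26 and 7.49 in the sEphB4-Alb tumors and 7.32 and 7.41 in the PBS tumors. The summed signals of the list were 4202 and 5677 in the sEphB4-Alb tumors and 2693 and 4504 in the PBS tumors. The 5 above 0 were Emcn (0.43), Cldn5 (0.37), Flt1 (0.31), Tek (0.28) and Tie1 (0.005). Below 0 were Pecam1, the vessel marker, at -0.05 (SE 0.18), and Esam at -0.45 (SE 0.16, adjusted p = 0.74 from limma). Esam is a junction protein of endothelium and platelets. Kdr, the VEGF receptor, was above background in no tumor. The part of endothelial content in the Robo4 value was not tested.

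Of the netrin receptors Unc5a to Unc5d, 3 of 4 were above background in both tumors of a group. Unc5b, the vascular member, had signals of 369 and 382 in the sEphB4-Alb tumors, against 302 and 274 in the PBS tumors. It was brighter in both sEphB4-Alb tumors before normalization, but after it the highest value was that of PBS tumor 1, at 8.09 and 7.86 in the sEphB4-Alb tumors and 8.69 and 7.87 in the PBS tumors. The log2 fold change was -0.31 (SE 0.31, 95% CI -1.11 to 0.50, limma adjusted p = 0.822), and it was 0.11 without PBS tumor 1. Unc5c, a receptor of neurons and other cells, had 794 and 703 in the sEphB4-Alb tumors, against 318 and 965 in the PBS tumors. PBS tumors 1 and 2 were here the dimmest and the brightest of the 4, so that the sEphB4-Alb tumors lay within the range of the PBS tumors. On the normalized scale Unc5c was at 9.32 and 8.76 in the sEphB4-Alb tumors and 8.80 and 9.87 in the PBS tumors, with a log2 fold change of -0.29 (SE 0.42, 95% CI -1.36 to 0.78, limma adjusted p = 0.87). It was -0.83 without PBS tumor 1 and 0.24 without PBS tumor 2. Unc5a had 177 and 200.1 in the sEphB4-Alb tumors, against 132 and 145 in the PBS tumors, with both sEphB4-Alb tumors higher and a log2 fold change of 0.26 (SE 0.17, adjusted p = 0.765 from limma), but it was above background in only 1 of the PBS tumors.

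**Figure D3:**
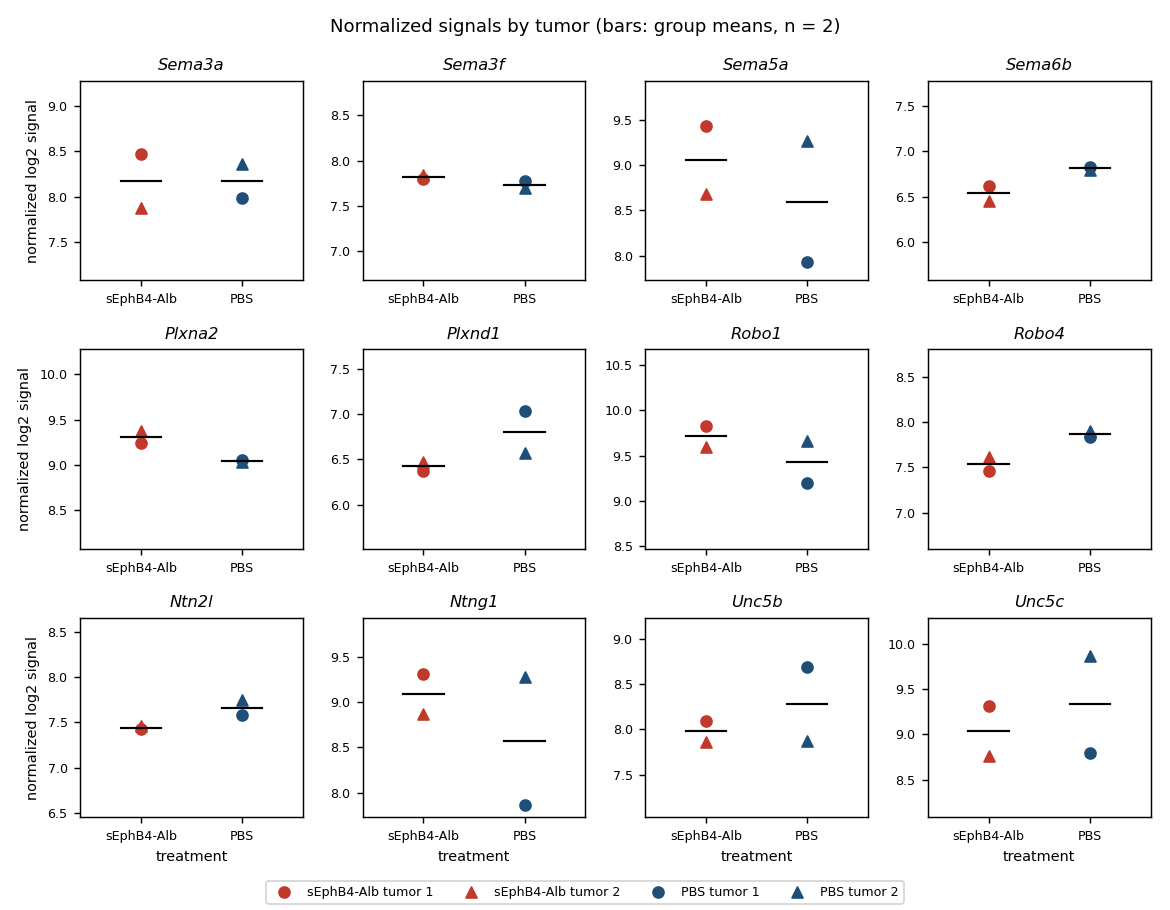
Normalized log2 signal of the 2 genes with the largest difference in each family, by tumor (red, sEphB4-Alb; blue, PBS; circles, tumor 1; triangles, tumor 2), with bars at the group means (n = 2 tumors per group). All panels span the same log2 range. PBS tumors 1 and 2 differ by 1.40 for Ntng1, 1.34 for Sema5a and 1.07 for Unc5c, more than the groups do in these panels.

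The widest gaps within a group among the 22 genes lay between the PBS tumors. PBS tumor 2 exceeded PBS tumor 1 by more than 2-fold after normalization in Ntng1, Sema5a and Unc5c, which is 13.6% of the 22 genes, against 3.63% of all genes tested. PBS tumor 1 held the lowest normalized value in 8 of the 22 genes (36.4%), against 33.8% of all genes. The 2 sEphB4-Alb tumors differed by up to 0.76 (Sema5a). Their widest gaps were in Sema5a, Sema3a, Slit2, Unc5c and Ntng1, each with tumor 1 above tumor 2, and smaller gaps went in either direction. The same 4 tumors differed in other cell types, since PBS tumor 1 had the lowest acinar median and the highest Hba-a1 value and sEphB4-Alb tumor 2 the highest acinar median. The part of these cells in the spread of Ntng1, Sema5a and Unc5c was not tested.

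The promoters of these 3 genes, the only ones of the 22 whose values spanned more than 2-fold over the tumors, are shown because PBS tumor 1 lay more than 2-fold below PBS tumor 2 in each. They are RefSeq sequences of build GRCm38.p6, written 5′ to 3′ on the gene's strand, with 250 bases before and 50 after the annotated start. Of the 42 genes, 35 had a promoter in that collection. Capitals mark the GC box (GGGCGG, either strand), the one motif found among those searched.
Ntng1, chr3:110143423-110143722, minus strand: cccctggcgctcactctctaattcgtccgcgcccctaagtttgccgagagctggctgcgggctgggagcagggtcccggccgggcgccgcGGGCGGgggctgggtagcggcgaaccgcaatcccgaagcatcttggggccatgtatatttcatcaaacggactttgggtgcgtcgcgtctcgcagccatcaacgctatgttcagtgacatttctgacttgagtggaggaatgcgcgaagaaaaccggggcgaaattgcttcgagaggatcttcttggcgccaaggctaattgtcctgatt
Sema5a, chr15:32244563-32244862, plus strand: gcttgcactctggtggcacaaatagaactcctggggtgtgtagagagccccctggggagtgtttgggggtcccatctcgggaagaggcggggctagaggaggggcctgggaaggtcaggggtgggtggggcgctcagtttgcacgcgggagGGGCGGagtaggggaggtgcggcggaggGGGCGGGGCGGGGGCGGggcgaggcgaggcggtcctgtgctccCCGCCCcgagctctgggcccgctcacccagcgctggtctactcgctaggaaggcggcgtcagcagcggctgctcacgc
Unc5c, chr3:141465314-141465613, plus strand: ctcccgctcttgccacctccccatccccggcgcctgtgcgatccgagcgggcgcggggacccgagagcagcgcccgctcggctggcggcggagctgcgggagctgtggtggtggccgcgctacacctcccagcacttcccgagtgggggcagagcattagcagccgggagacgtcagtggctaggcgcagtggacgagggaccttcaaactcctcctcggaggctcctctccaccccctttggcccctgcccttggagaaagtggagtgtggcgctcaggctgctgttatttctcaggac
Counting overlapping matches, the GC box was found 5 times in Sema5a, 1 time in Ntng1 and 0 times in Unc5c, and 35.7% of 32851 promoters of this length held it. None of the other motifs searched on both strands was in any of the 3. The TATA box was searched as TATAAA, which 13.6% of promoters held. The CCAAT box was searched by the letters of its name, held by 37.4%. For the E-box the letters were CACGTG, held by 7.15%. The RBPJ motif of Notch target genes was searched as GTGGGAA and found in 6.38% of promoters. The core of hypoxia response elements was searched as ACGTG, which every E-box match also contains, and found in 19.6%. Their GC contents were 59.7% (Ntng1), 71.3% (Sema5a) and 68.3% (Unc5c), against a median of 52.7% over all promoters.

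Partners of these families were examined through a list of 64 co-receptors, other ligands and signal mediators, of which 52 were in the value table and 33 were tested. By unadjusted p under 0.05 from limma, 0 of the 33 were higher and 0 lower, against 3.85% and 2.63% of all genes tested. The median log2 fold change was 0.02, with 18 genes above 0 and 15 below. Nrp1, the neuropilin that class 3 semaphorins and VEGF share, had signals of 806 and 1107 in the sEphB4-Alb tumors, against 343 and 683 in the PBS tumors and a log2 fold change of 0.26 (SE 0.21), whereas Nrp2 was above background in no tumor. Neo1, the netrin receptor neogenin, was at 0.17 (SE 0.16). The largest values were those of Dpysl3, Dpysl5 and Dpysl4, which are collapsin response mediators, and they differed in sign. These mediators are cytoplasmic proteins that act downstream of Sema3a. Dpysl2 and Crmp1, of the same family, were at -0.18 (SE 0.16) and 0.22 (SE 0.20). Dpysl3 had 379 and 503 in the sEphB4-Alb tumors, against 129 and 293 in the PBS tumors, with a log2 fold change of 1.02 (SE 0.54, adjusted p = 0.749 from limma), and it was above background in only 1 of the PBS tumors. Dpysl5 and Dpysl4 were at -0.44 (SE 0.30) and -0.44 (SE 0.20). In each the normalized sEphB4-Alb values lay below the PBS values, an order found in 21.3% of all genes tested. For Dpysl5 the margin was narrow, at 8.216 and 8.297 in the sEphB4-Alb tumors and 9.088 and 8.304 in the PBS tumors. Its unprocessed signals were higher in sEphB4-Alb, at 400 and 508 against 372 and 355, and those of Dpysl4 overlapped. Pitpna, a lipid transfer protein that binds Dcc, was at 0.40 (SE 0.28), with PBS tumor 1 below the other 3 tumors.

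The scaling set the sign of several of these values. Without normalization between arrays the median of all genes tested was 0.62 higher in sEphB4-Alb and the median of the 22 genes 0.49 higher, and the unprocessed signals of the groups stood apart in 14 of the 22 genes (63.6%) with sEphB4-Alb brighter, against 76.6% of all genes, and in 0 with sEphB4-Alb dimmer, against 0.352% of all genes. PBS tumor 1 had the dimmest unprocessed signal in 19 of the 22 genes (86.4%), against 85.3% of all genes. Relative to the median gene, the largest values were then 0.63 for Ntng1, 0.57 for Sema5a, 0.46 for Robo1 and 0.45 for Plxna2, and the lowest were -0.62 for Plxnd1, -0.54 for Sema6b and -0.46 for Sema4g. Robo4 was at -0.28, Ntn2l at -0.20, Unc5b at -0.17 and Unc5c at -0.12. The sign relative to the median gene was that of the quantile normalized value for each of the 12 genes with the largest differences of their families, but it turned from above to below 0 in 5 of the other 10, namely Ntn4 (-0.33), Sema4d (-0.12), Sema4f (-0.19), Sema6d (-0.19) and Slit2 (-0.07).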

How the data were processed

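RNA of 4 insulinomas (2 sEphB4-Alb, 2 PBS) was measured on 1 array each. Total RNA was labelled as biotinylated cRNA. The values the authors deposited are linear intensity readings with 1 row for each symbol, and their array medians differ. For this table the scanner software and any normalization were not given in the sources used here. Another 8 columns, including detection p-values, carry names that match no single sample and were not used. The 42 genes matched the RefSeq annotation of GRCm38.p6 by symbol (41) or synonym (1).

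Signals were corrected by normexp (offset 50), quantile normalized and log2 transformed, and the groups were fitted with limma 3.58.1 (lmFit, eBayes; R 4.3.3), without covariates, and p-values were adjusted over all 9668 genes by Benjamini-Hochberg. Confidence intervals are at 95%. The study's methods name the thresholds, 2-fold and p 0.05. The background of an array is the mode of its signals plus 1.645 times the spread below the mode. The steps were tested on simulated data. Precision is limited by how few arrays there are, with 2 residual degrees of freedom.

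Genes given in full were those with an unadjusted p under 0.05, those over 2-fold and the 2 with the largest difference in each of 6 families. The genes, the partner list and the marker lists were chosen with earlier results of these data known. Alternatives covered the background correction and its offset, the scaling, the filter, the variance model, the exact Mann-Whitney-Wilcoxon test, a block for the replicate number, leaving out each array, the fold threshold, ratios of linear means and the members Unc50 and Unc5cl. Figures were drawn with matplotlib 3.10.9.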

Additional observations from a re-analysis of the deposited data

How the results depend on the processing

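Past both thresholds, 103 genes were called higher in sEphB4-Alb tumors and 17 lower. The higher and lower counts were 68 and 7 without background correction, 155 and 29 with a normexp offset of 16, 312 and 8 when arrays were scaled to their medians, 1267 and 3 with arrays not normalized, 32 and 8 without moderation, 264 and 122 at a fold threshold of 1.5 and 0 and 0 with the exact Mann-Whitney-Wilcoxon test, which cannot pass 0.05 here. There were 64 higher genes with signal above background on all 4 arrays. The share of higher genes among those called was 85.8%, 97.5% after median scaling, 99.8% without normalization and 68.4% at 1.5-fold. With 1 array left out, 98 to 302 genes were higher and 33 to 176 lower, with both the highest counts without PBS tumor 2, where the lone array is assumed to vary like the other group.

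Of the semaphorin, plexin, Slit, Robo, netrin and Unc5 genes, 0 were called in either direction with all 4 arrays used and normalized. Without normalization between arrays 2 were called higher (Plxna2 and Robo1) and 0 lower, against 1267 and 3 of the 9668 genes tested. Ntng1 and Sema5a were at log2 fold changes of 1.21 and 1.12 without PBS tumor 2. With no filter on dim genes Robo4, lower, had an unadjusted p under 0.05 from limma, as did 1147 of all 18091 genes. The log2 fold changes of Unc5c and Sema4g were -0.83 and -0.49 without PBS tumor 1. Those of Sema4f, Plxnd1 and Unc5b were 0.49, -0.61 and -0.71 without PBS tumor 2. Of the 42 genes, 22 were above background in both tumors of a group, 14 in all 4 tumors and 19 at the 99th percentile, which left out Ntn4, Plxnd1 and Sema6d. Leaving out Unc50 and Unc5cl, which were not tested, changed none of these counts. Groups lay apart, higher, in 3 of the 22 tested genes, an order found in 18.1% of all genes tested. The count was 7 of 22 after median scaling, 14 of 22 without normalization and 8 of 42 with no filter. With 1 array left out it was 6 to 12, of 22 to 25 tested. Groups lay apart, lower, in 4 of the 22, an order found in 21.3% of all genes tested. That count was 2 of 22 after median scaling, 0 of 22 without normalization and 2 of 14 with signal on all 4 arrays. It was 4 to 9 of 22 to 25 with 1 array left out, where fewer tumors overlap less by construction. The shares of all genes at these other settings were not counted, so no rise of these genes over others can be read from the counts. By unprocessed signals, also not normalized between arrays, groups lay apart in 76.6% of all genes with sEphB4-Alb higher. They lay apart in 0.352% with sEphB4-Alb lower. The median log2 fold change of 0.02 was 0.16 after median scaling, 0.49 without normalization (-0.12 relative to the median gene, an alternative added after the data were seen), 0.045 with signal on all 4 arrays and -0.17 to 0.088 with 1 array left out, lowest without PBS tumor 1.

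Signs turned after median scaling, which raised the median of all genes to 0.29, for Ntn2l (0.085), Robo4 (0.0068), Unc5b (0.11) and Unc5c (0.16), and without normalization, which raised it to 0.62, for Ntn2l (0.41), Robo4 (0.34), Sema6b (0.075), Unc5b (0.44) and Unc5c (0.49). With 1 array left out the log2 fold changes ran from -0.19 to 1.21 for Ntng1, -0.22 to 1.12 for Sema5a, -0.29 to 0.29 for Sema3a, -0.71 to 0.11 for Unc5b and -0.83 to 0.24 for Unc5c, and 8 of the 22 genes kept their sign throughout. The cause was not tested. With the replicate block 159 genes were higher and 22 lower over all genes, and 0 of the 22 genes were called. The tumors share only a number, taken from titles that the description field contradicts, and their deviations from the group means correlated at r = 0.04 across genes. The other deposited table was not run as an alternative, because its columns name no single sample. Signals near the background threshold, as in some tumors for Plxnd1, Sema6b and Ntn4, limit what these arrays resolve.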

Other observations

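Several receptors and ligands outside the comparison exceeded the background in single tumors. Plxnb1, the receptor of Sema4d, had signals of 142 and 176 in the sEphB4-Alb tumors, against 129.9 and 142 in the PBS tumors, and was above background in tumor 2 of each group. Plxnc1, the receptor of Sema7a, had 142 and 169 in the sEphB4-Alb tumors, against 136 and 134 in the PBS tumors, with sEphB4-Alb tumor 2 alone above background. Sema7a had 147 and 154 in the sEphB4-Alb tumors, against 123 and 136 in the PBS tumors and passed in the same tumor only. Robo2, a Slit receptor of neurons, had 149.7 and 144 in the sEphB4-Alb tumors, against 126 and 131 in the PBS tumors and passed in sEphB4-Alb tumor 1 only. These are values near the detection limit, and no difference between the groups was tested for them.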
